A study of Rattus norvegicus with 138 samples.

Results

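The genes described here are 9 interferon-response genes of the rat, Irf1, Irf7, Isg15, Mx1, Mx2, Oas1a, Ifit2, Ifit3 and Rsad2, taken by symbol from a table of 16181 gene symbols. All 9 were present, and all 9 passed the filter on low values, as did 11328 symbols in all. They were followed in the tibialis anterior (TA) muscle of inbred male Lewis rats, about 4 months old, after volumetric muscle loss (VML), a wound in which a plug of muscle too large to regrow is removed. The plug was cut from the middle of 1 TA with a 6-mm punch, and total RNA of the muscle was sequenced at 3, 7, 14 and 28 days post injury (DPI). The wound was either left non-repaired or filled with minced muscle graft (MMG), small pieces of muscle put back into the defect. Some rats of either arm also ran, which the sample labels give without a protocol. The TA of the other leg served as the contralateral muscle, so it shared the animal, the surgery and, in the running rats, the exercise of its injured partner. The unoperated control was 4 muscles, both legs of 2 rats labelled as sham, whose identifiers form another series than those of the operated rats. The rat series and the operation therefore cannot be told apart in a comparison with control, whereas injured and contralateral muscles came from 1 series of rats. Each of the 34 contralateral muscles had its injured partner measured, but most of the 76 injured muscles had no measured contralateral partner.

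After libraries with fewer than 7000 symbols above 1 TPM, a unit of transcripts scaled for their length and for the total of the library, were dropped, 114 muscles of 78 rats remained, of which 76 were injured, 34 contralateral and 4 control. Without running, the non-repaired arm held 3, 8, 4 and 4 injured and 2, 4, 2 and 2 contralateral muscles at 3, 7, 14 and 28 DPI, and the grafted arm held 7, 8, 4 and 4 injured and 2, 6, 2 and 2 contralateral ones. With running, there were 8, 4, 4 and 2 injured non-repaired and 6, 4, 4 and 2 injured grafted muscles, and 2 contralateral muscles in either arm at 3, 7 and 14 DPI. The 13 dropped libraries showed 901 to 5712 symbols above 1 TPM and the kept ones 7866 to 10948. The read depth of each single library cannot be read from these values, because TPM does not keep it. The labelled tissue was checked on 10 adult muscle fibre markers, whose summed level was 231413 to 301522 TPM in control muscle.

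Interferons are secreted proteins through which cells warn each other of viruses and other damage. Type I interferons, such as interferon alpha and beta, and type II interferon, interferon gamma, bind separate receptors on the cell surface, and the Janus kinases attached to these receptors pass the signal to transcription factors. The signal of type I interferon is known to act on the interferon-stimulated response element (ISRE) of promoters, and that of interferon gamma on the gamma-activated site (GAS). Among the genes described here, Irf1 and Irf7 encode transcription factors that act within this circuit, Irf1 being a direct target of interferon gamma and Irf7 a driver of further type I interferon production. Isg15 encodes a ubiquitin-like protein that is joined to other proteins. Mx1 and Mx2 encode dynamin-like GTPases that block viruses, and Oas1a encodes a 2′-5′ oligoadenylate synthetase, a sensor of double-stranded RNA that turns on ribonuclease L. Ifit2 and Ifit3 encode proteins with tetratricopeptide repeats that bind foreign RNA or its partners, and Rsad2 encodes viperin, an enzyme that makes a chain-terminating nucleotide.

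Promoter sequences show the elements on which this response is known to act. RefSeq promoters of the rat assembly GRCr8, each 250 bases before and 50 bases from the gene start, were at hand for 6 of the 9 genes, Irf1, Irf7, Mx1, Oas1a, Ifit3 and Rsad2. Of these, 4 are printed 5′ to 3′ on the strand of the gene, the first 3 for their ISRE core and the last for its GAS, and capitals mark the motif letters.
Irf7: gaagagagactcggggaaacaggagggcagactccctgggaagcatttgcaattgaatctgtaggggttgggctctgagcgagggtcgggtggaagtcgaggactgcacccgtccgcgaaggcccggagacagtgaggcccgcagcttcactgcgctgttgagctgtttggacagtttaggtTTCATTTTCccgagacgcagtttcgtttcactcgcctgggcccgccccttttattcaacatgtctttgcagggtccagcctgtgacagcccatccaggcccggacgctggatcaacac
Oas1a: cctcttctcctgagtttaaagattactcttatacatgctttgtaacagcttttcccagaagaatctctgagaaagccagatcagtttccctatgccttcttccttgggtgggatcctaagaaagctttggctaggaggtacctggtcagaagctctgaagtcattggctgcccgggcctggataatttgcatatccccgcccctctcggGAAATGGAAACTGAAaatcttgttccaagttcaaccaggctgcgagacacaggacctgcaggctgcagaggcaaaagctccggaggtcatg
Ifit3: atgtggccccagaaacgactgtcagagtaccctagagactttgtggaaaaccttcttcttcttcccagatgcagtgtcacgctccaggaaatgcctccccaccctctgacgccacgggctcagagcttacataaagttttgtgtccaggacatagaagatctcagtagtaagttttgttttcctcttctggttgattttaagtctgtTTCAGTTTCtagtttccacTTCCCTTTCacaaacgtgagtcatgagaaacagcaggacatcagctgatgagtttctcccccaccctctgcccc
Irf1: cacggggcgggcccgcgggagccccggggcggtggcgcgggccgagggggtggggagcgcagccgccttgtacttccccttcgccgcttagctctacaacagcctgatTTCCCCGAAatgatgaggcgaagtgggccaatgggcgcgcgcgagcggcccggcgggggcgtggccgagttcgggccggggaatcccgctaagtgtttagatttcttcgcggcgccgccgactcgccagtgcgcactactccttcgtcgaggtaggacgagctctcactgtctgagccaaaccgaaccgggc
These windows lie at chr1:205799974-205800273 on the minus strand for Irf7, chr12:41330216-41330515 on the plus strand for Oas1a, chr1:241527076-241527375 on the plus strand for Ifit3 and chr10:38417685-38417984 on the plus strand for Irf1. The ISRE core was searched as GAAANNGAA on both strands and the GAS as TTCNNNGAA, which reads the same on both strands. The ISRE core was found in 4 of the 6 promoters, Irf7, Oas1a, Ifit3 and Rsad2, and in 9.71% of all 33469 rat promoters of that length. Counted from the gene start, with -1 for the base before it, its first base was at -68 in Irf7, at -43 and -24 in Ifit3 and at -146 in Rsad2. In Oas1a, matches that began at -41 and -35 overlapped by 3 bases. A GAS was found in 2 of the 6, at -142 in Irf1 and -199 in Oas1a, and in 8.87% of all promoters. The window of Mx1 held neither motif in these letters. A match is a stretch of letters and was not tested for binding.

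Some of the genes lie side by side and resemble each other, which matters for how reads were shared out. Ifit2 and Ifit3 are neighbours on chromosome 1, Oas1a lies between Oas1d and Oas1h on chromosome 12, and Mx1 and Mx2 lie on chromosome 11 with Fam3b between them. The split of reads between Mx1 and Mx2, between Ifit2 and Ifit3, and between Oas1a and its relatives is therefore uncertain.

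In unoperated control muscle the 9 genes were low. The control muscles held 2.85, 4.31, 4.95 and 2.38 TPM of Irf1 and 4.02, 3.53, 3.71 and 2.22 TPM of Irf7. For Isg15 they held 4.26, 2.93, 3.28 and 2.12 TPM, and for Mx2 4.45, 5.41, 4.22 and 1.75 TPM. Mx1, Oas1a and Rsad2 were near 1 TPM, with ranges of 0.22 to 1.00, 0.82 to 1.40 and 0.71 to 0.92 TPM. Ifit2 ranged from 1.34 to 4.88 and Ifit3 from 0.90 to 2.24 TPM. On this per-length scale Mx1 and Rsad2 were thus the lowest genes of the set in control muscle, although their ranges overlapped those of Oas1a and Ifit3.

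**Figure D1:**
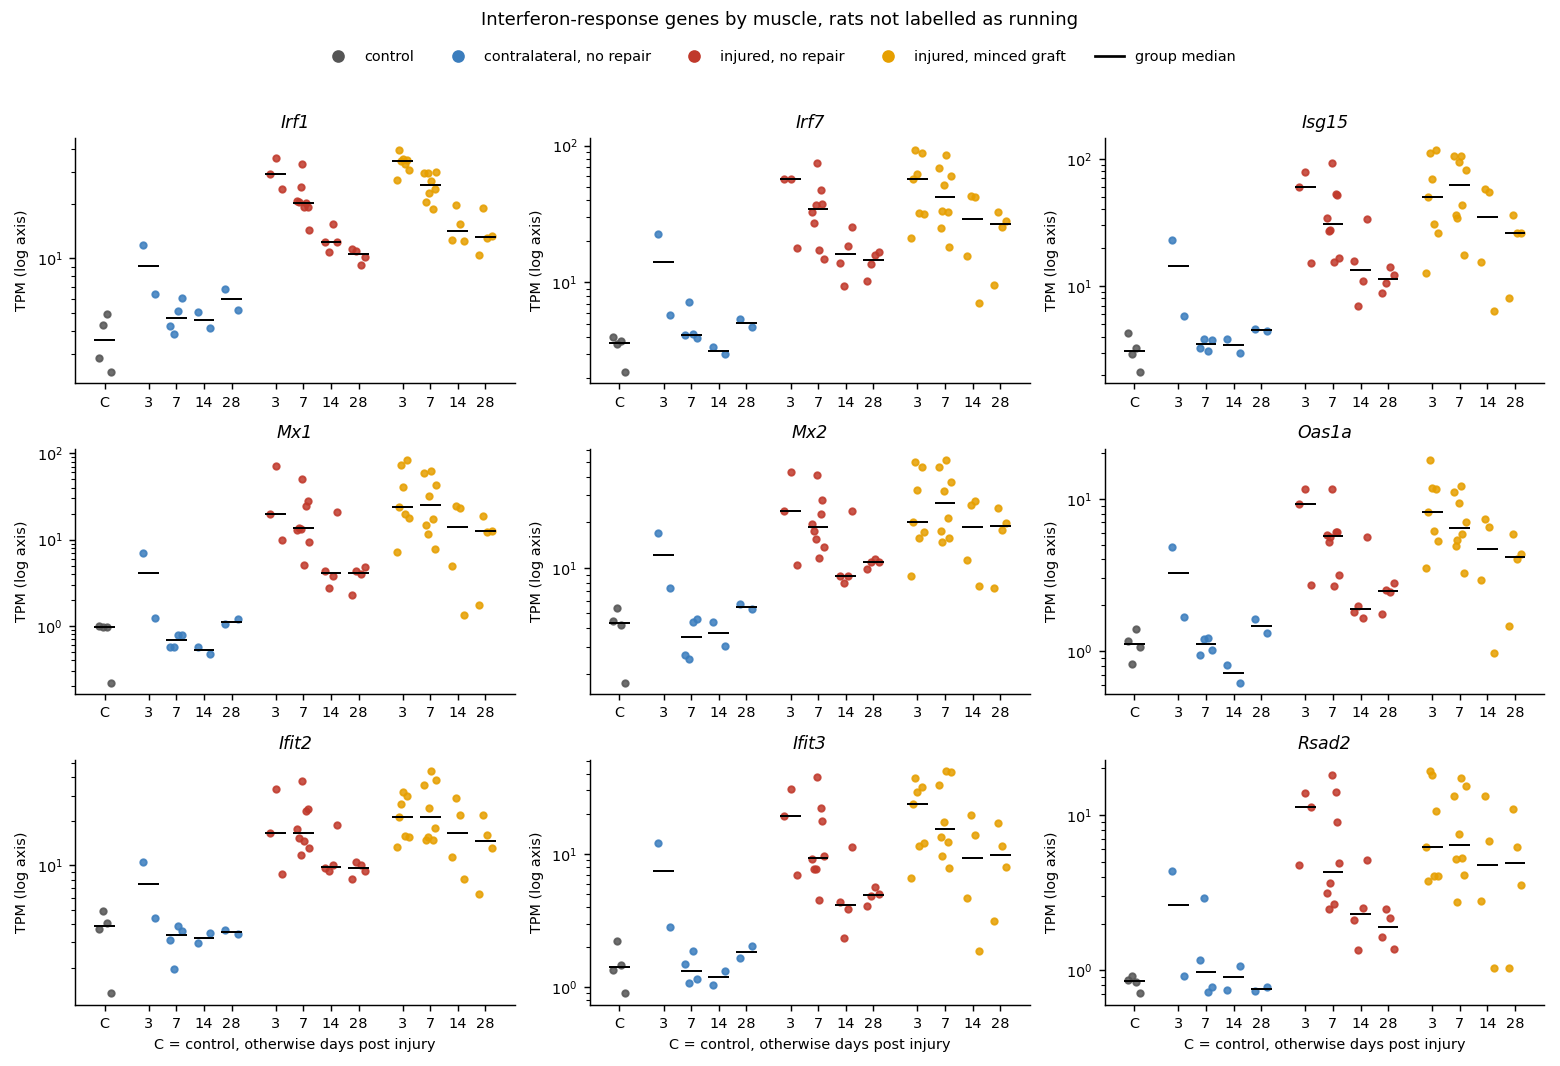
Level of each of the 9 genes in TPM, on a log axis, in control (C), contralateral non-repaired, injured non-repaired and injured grafted muscle of rats not labelled as running, by day post injury. Points are muscles and black lines are group medians: Isg15 reaches 92.57 TPM without repair at 7 DPI and 118.02 TPM with graft at 3 DPI, against at most 4.26 TPM in control.

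The question of the first comparison is how injury without repair changed the muscle, and it was asked of injured against contralateral muscle of the same day. On days 3, 7, 14 and 28 the number of the 9 genes called higher was 6, 9, 6 and 2, and none was called lower. A gene was called where limma on log2(TPM + 1) gave an adjusted p under 0.05 (Benjamini-Hochberg over the 11328 genes) and a log2 fold change beyond 1. These comparisons called 38.2%, 47.4%, 21.1% and 13.3% of everything tested. For the 9 genes the median log2 fold change was 1.64, 2.27, 1.39 and 1.04 at 3, 7, 14 and 28 DPI, beside 0.54, 0.91, 0.50 and 0.38 over all tested genes. Since the samples were whole muscle, fewer cells of a type and less RNA per cell cannot be told apart.

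Of the transcription factors, Irf1 passed the adjusted p on each of the 4 days and Irf7 was called on each. Irf1 measured 29.11, 35.91 and 24.24 TPM in the injured muscles at 3 DPI, against 11.85 and 6.37 TPM contralaterally. Every injured muscle was above both contralateral ones. Its log2 fold change was 1.64 ± 0.23 (SE, adjusted p = 1.46e-09) at 3 DPI and 1.93 ± 0.16 (adjusted p = 3.23e-20) at 7 DPI, when the 8 injured muscles had a lowest, median and highest level of 14.26, 20.22 and 33.15 TPM. At 28 DPI the injured muscles still held 11.24, 11, 9.26 and 10.23 TPM against 6.83 and 5.21 TPM, with a log2 fold change of 0.71 ± 0.22 (adjusted p = 0.00568) that did not reach 1. Irf7 measured 57.29, 56.64 and 17.92 TPM in the injured muscles at 3 DPI and 22.59 and 5.78 TPM contralaterally. The lowest injured muscle lay below the highest contralateral one, and the log2 fold change was 1.66 ± 0.60 (adjusted p = 0.0107). At 7 DPI the levels were 14.72, 34.64 and 75.00 TPM (lowest, median and highest of 8), all above the 4.10, 7.21, 4.22 and 3.91 TPM of the contralateral muscles, and the log2 fold change was 2.53 ± 0.40 (adjusted p = 1.88e-08). Irf7 and Ifit2 were the 2 genes called at 28 DPI, where Irf7 measured 10.21, 13.54, 15.82 and 16.81 TPM against 5.36 and 4.71 TPM (log2 fold change 1.30 ± 0.57, adjusted p = 0.0487).

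Isg15, the ubiquitin-like modifier, was called at 3, 7 and 14 DPI. At 3 DPI the injured muscles held 59.56, 79.42 and 15.21 TPM and the contralateral ones 22.91 and 5.78 TPM. The groups overlapped through the lowest injured and the highest contralateral muscle, and the log2 fold change was 1.75 ± 0.75 (adjusted p = 0.0317). At 7 DPI the injured levels were 15.55, 30.84 and 92.57 TPM (lowest, median and highest of 8), whereas the contralateral ones were 3.26, 3.83, 3.10 and 3.74 TPM, and the log2 fold change of 2.96 ± 0.50 (adjusted p = 1.19e-07) was the second largest of the set. At 14 DPI the levels were 15.72, 6.98, 10.90 and 33.54 TPM against 3.87 and 2.99 TPM (log2 fold change 1.80 ± 0.71, adjusted p = 0.0234). By 28 DPI they were 8.83, 10.62, 14.13 and 12.20 TPM against 4.64 and 4.44 TPM, without overlap but with a log2 fold change of 1.15 ± 0.71 that missed the threshold (adjusted p = 0.170).

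Of the antiviral GTPases, Mx1 had the largest fold change of the set at 3, 7 and 14 DPI. It measured 20.04, 71.50 and 9.77 TPM in injured and 6.98 and 1.25 TPM in contralateral muscle at 3 DPI, without overlap (log2 fold change 2.58 ± 0.85, adjusted p = 0.00501). At 7 DPI it measured 5.1, 13.53 and 50.02 TPM (lowest, median and highest of 8) against 0.57, 0.57, 0.79 and 0.79 TPM, with a log2 fold change of 3.34 ± 0.57 (adjusted p = 1.22e-07). At 14 DPI 1 of the 4 injured muscles held 21.01 TPM and the others 4.36, 2.74 and 3.82 TPM, which left the gene called at 2.16 ± 0.80 (adjusted p = 0.0158). Mx2 measured 23.56, 42.84 and 10.40 TPM in injured muscle at 3 DPI, overlapping the contralateral 17.09 and 7.39 TPM, and did not pass the test (0.90 ± 0.54, adjusted p = 0.122). It was called at 7 DPI (2.22 ± 0.36, adjusted p = 3.29e-08) and at 14 DPI (1.37 ± 0.51, adjusted p = 0.0153).

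The remaining genes are Oas1a, Ifit2, Ifit3 and Rsad2, and differences between them in how long they stayed higher were not tested. At 14 DPI Oas1a (log2 fold change 1.02 ± 0.49, adjusted p = 0.0596) and Ifit3 (1.39 ± 0.66, adjusted p = 0.0570) narrowly missed the adjusted p. Oas1a measured 9.20, 11.61 and 2.73 TPM against 4.86 and 1.68 TPM at 3 DPI and was called only at 7 DPI among the 4 days (1.61 ± 0.35, adjusted p = 1.62e-05). Ifit2 was called at each of them, with log2 fold changes of 1.20 ± 0.46, 2.27 ± 0.31, 1.57 ± 0.44 and 1.20 ± 0.44 (adjusted p = 0.0167, 2.09e-10, 0.00142 and 0.0183) at 3, 7, 14 and 28 DPI. Its injured muscles at 3 DPI held 16.74, 33.15 and 8.73 TPM, of which the lowest lay below the higher contralateral muscle (10.53 and 4.38 TPM). Ifit3 measured 19.29, 30.60 and 6.95 TPM against 12.07 and 2.82 TPM at 3 DPI (1.28 ± 0.69, adjusted p = 0.0888) and was called only at 7 DPI, at 2.44 ± 0.46 (adjusted p = 1.53e-06). Rsad2, the viperin gene, measured 4.74, 13.76 and 11.30 TPM against 4.34 and 0.92 TPM at 3 DPI (1.66 ± 0.67, adjusted p = 0.0224). It was again called at 7 DPI (1.57 ± 0.45, adjusted p = 0.000933) and no longer at 14 DPI (0.90 ± 0.64, adjusted p = 0.210).

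Every injured muscle lay above every contralateral muscle for 3, 8, 9 and 9 genes at 3, 7, 14 and 28 DPI, where 59.7%, 67%, 73.1% and 67.4% of all tested genes did so. At 3 DPI 1 muscle of either side decided the count of called genes: without contralateral replicate 2 or without injured replicate 2 it was 1 gene instead of 6. Where such a refit leaves 1 contralateral muscle, here and below, that muscle is assumed to vary like the other groups of the model, whose spread the test then uses. At 14 DPI it was 3 without contralateral replicate 2 and 3 without injured replicate 4. At 28 DPI it was 0 without contralateral replicate 1 or 2 and 1 without injured replicate 2, 3 or 4. When the muscles were scaled to equal median ratios by size factors, the median log2 fold change of all genes shifted by -0.49, -0.85, -0.50 and -0.36 at 3, 7, 14 and 28 DPI, the genes called were 2, 6, 3 and 0, and the share of all called genes that were higher moved from 84.5%, 95.8%, 99.2% and 98.4% to 60.4%, 59.3%, 73.5% and 82.7%. The log2 fold changes of the 9 genes then ran from 0.37 to 2.09, from 0.82 to 2.68, from 0.55 to 1.92 and from 0.15 to 0.90, against medians of all genes of 0.05, 0.06, 0 and 0.02.

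**Figure D2:**
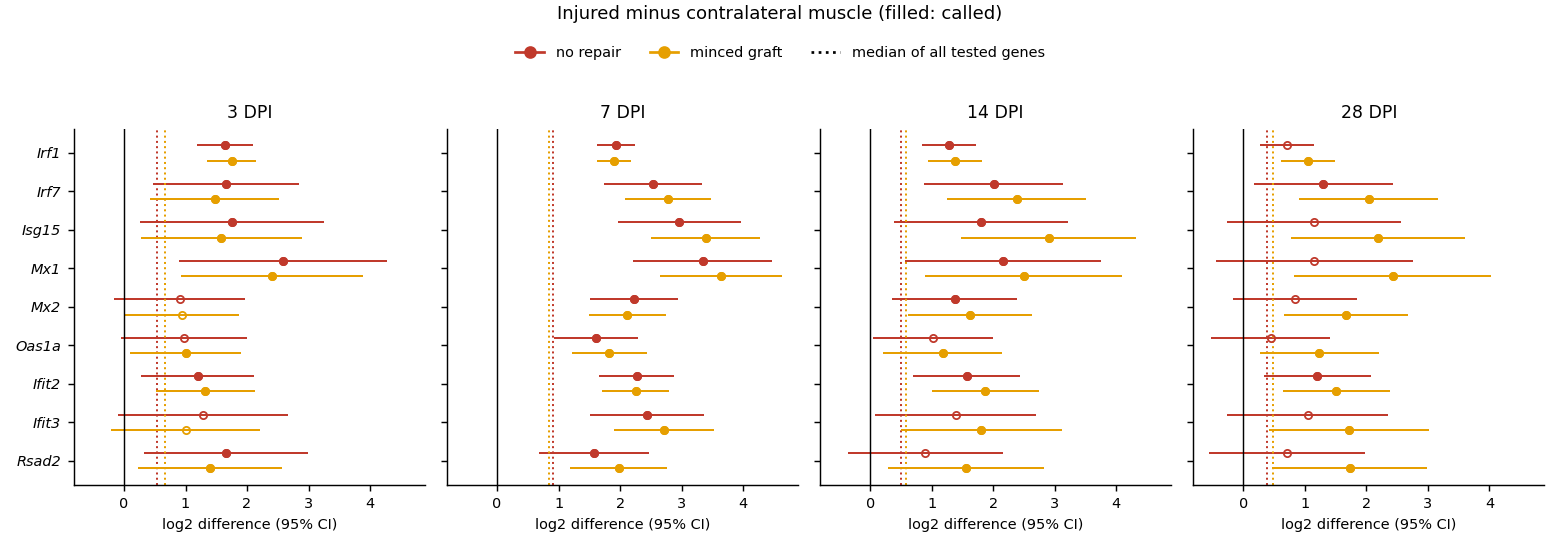
Log2 fold change of each gene in injured against contralateral muscle, by day post injury, without repair (red) and with minced graft (orange). Points are limma estimates (filled where called), bars are 95% confidence intervals and dotted lines are medians of all tested genes. At 7 DPI the 9 estimates without repair run from 1.57 for Rsad2 to 3.34 for Mx1.

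Markers of other cells moved with these differences. The summed level of 11 macrophage and pan-leukocyte markers was 22.25 to 45.55 TPM in control and 89.45 to 237.79 TPM in contralateral muscle at 3 DPI. In injured muscle without repair it was 5341 to 7179 TPM at 3 DPI, 739 to 3468 at 7 DPI, 494 to 611 at 14 DPI and 277 to 910 at 28 DPI. Muscle fibre markers moved the other way at 3 DPI, at 46306 to 62627 TPM in injured and 185267 to 212979 TPM in contralateral muscle. All 11 macrophage markers were called higher at 3, 7 and 14 DPI and 9 at 28 DPI, and 10 and 8 of 10 fibre markers were called lower at 3 and 7 DPI. Of the T and natural killer cell markers, 7, 10, 5 and 1 of 11 were called higher at 3, 7, 14 and 28 DPI. The neutrophil markers had 4 of 6 called higher at 3 DPI, 1 at 7 DPI and 0 later, and the plasmacytoid dendritic cell markers, a list that shares Irf8 with the transducers and in which Siglech and Clec4c were not analysed here, had 2, 2, 2 and 1 of 5. All tested genes were called in 38.2%, 47.4%, 21.1% and 13.3% of cases on those days, so that the plasmacytoid counts on all days but 14 DPI, the neutrophil counts after 3 DPI and the T and natural killer count at 28 DPI were near or below that share. Mpo, which defines immature neutrophils, was at 0 in 58 of the 114 muscles and Camp in 38. The part of these cells in the interferon-response differences was not tested.

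Injured muscle without repair was also set against unoperated control. In that comparison 9, 9, 7 and 7 genes were called higher at 3, 7, 14 and 28 DPI, where 52.6%, 48.1%, 25.5% and 21.3% of all tested genes were called. Their median log2 fold change was 2.75, 2.29, 1.55 and 1.31. This comparison shares its injured muscles with the one above. Mx1 was again the largest at 3 DPI, with 3.86 ± 0.71 (adjusted p = 8.17e-07), and Oas1a the smallest, with 1.90 ± 0.43 (adjusted p = 4.5e-05). At 28 DPI Oas1a (0.67 ± 0.40, adjusted p = 0.122) and Rsad2 (0.65 ± 0.52, adjusted p = 0.253) did not pass, and neither did they at 14 DPI. With size factors 1 gene was called at 28 DPI, the median of all genes shifted by -0.87, -0.83, -0.51 and -0.48 and the share of all called genes that were higher moved from 91.9%, 95%, 97.9% and 99% to 59.2%, 60.6%, 72.8% and 78.4%; the median log2 fold change of the 9 genes was then 1.77, 1.36, 1.03 and 0.80.

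Whether the contralateral muscle itself differed from unoperated muscle was asked next, since it served as the reference. At 3 DPI 5 of the 9 genes were called higher in contralateral muscle without repair, where 6.43% of all tested genes were called. These were Irf1 (log2 fold change 1.11 ± 0.22, adjusted p = 5.65e-05), Irf7 (1.55 ± 0.57, adjusted p = 0.0179), Isg15 (1.64 ± 0.71, adjusted p = 0.0445), Mx2 (1.38 ± 0.51, adjusted p = 0.0187) and Ifit3 (1.53 ± 0.66, adjusted p = 0.0423). Mx1 (1.27 ± 0.80, adjusted p = 0.168), Oas1a, Ifit2 and Rsad2 did not pass. Both contralateral muscles lay above every control muscle for 7 genes, where 60.2% of all tested genes did so. The 2 muscles were unlike each other, with 22.91 and 5.78 TPM of Isg15 and 6.98 and 1.25 TPM of Mx1. Without the higher of them, replicate 1, no gene was called, and without control replicate 4 or 3 the counts were 0 and 3.

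The call was also lost in other settings. It was 0 of 9 with size factors, with all libraries kept or with a fit of these 2 groups alone, 1 with the control muscles averaged per rat and 3 without the filter on low genes. The median log2 fold change of the 9 genes was 1.27 and that of all genes 0.43, and size factors lowered the latter by 0.41 (a shift of -0.41) and the former to 0.94. The share of all called genes that were higher moved from 99.2% to 84.4%. At 7, 14 and 28 DPI no gene was called and 0.803%, 0.715% and 0.185% of all tested genes were. With no threshold on the fold and no adjustment, limma gave p under 0.05 for 6, 1, 0 and 1 of the 9 genes at 3, 7, 14 and 28 DPI.

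The contralateral muscles of the grafted arm were also high at 3 DPI. They held 12.51 and 17.76 TPM of Isg15, 11.47 and 24.67 TPM of Irf7 and 7.49 and 10.49 TPM of Ifit3, all above the control muscles. In running rats the contralateral Isg15 levels at 3 DPI were 3.54 and 12.44 TPM without repair and 7.08 and 4.73 TPM with graft. After these values had been seen, the contralateral muscles of both arms were compared between 3 DPI (4 muscles) and 7 DPI (10 muscles), which uses no control. At 3 DPI 5 genes were called higher, where 2.37% of all tested genes were called: Irf7 (1.32 ± 0.39, adjusted p = 0.00279), Isg15 (1.52 ± 0.49, adjusted p = 0.00609), Mx1 (1.37 ± 0.55, adjusted p = 0.0280), Mx2 (1.18 ± 0.35, adjusted p = 0.00276) and Ifit3 (1.62 ± 0.45, adjusted p = 0.00160). The mean of Isg15 was 14.74 TPM at 3 DPI and 4.05 TPM at 7 DPI. With size factors, which shifted the median of all genes by -0.32 and moved the share of called genes that were higher from 95.1% to 46.6%, 1 gene was called, and with all libraries kept 8 were. Without single muscles the count ran from 4 to 7. Of the markers of other cells, Lyz2 of macrophages (1.21), S100a8 and S100a9 of neutrophils (1.52 and 1.92) and the fibre gene Myh1 (1.12) were also called higher at 3 than at 7 DPI and the fibre gene Pvalb lower (-1.23), which were 1 of 11, 2 of 6 and 2 of 10 tested markers. The macrophage sum was 89.45 to 237.79 TPM at 3 DPI and 62.26 to 116.96 TPM at 7 DPI. The part of these cells in this difference was not tested.

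**Figure D3:**
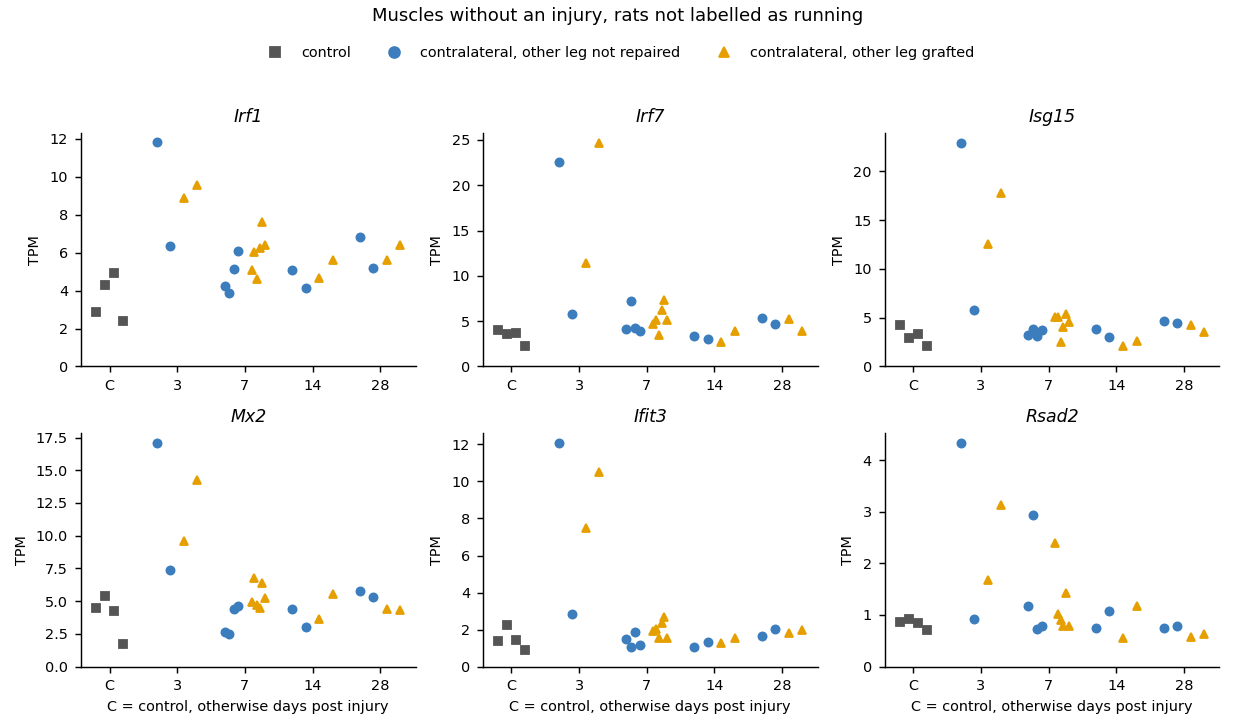
Levels of Irf1, Irf7, Isg15, Mx2, Ifit3 and Rsad2 in TPM in control muscle (C, squares) and in contralateral muscle of rats not labelled as running, by day post injury, with circles for rats without repair and triangles for grafted rats. The 4 contralateral muscles at 3 DPI span 5.78 to 22.91 TPM of Isg15, above the highest control muscle at 4.26 TPM.

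Other markers moved with the contralateral difference at 3 DPI. The macrophage marker sum was 89.45 and 237.79 TPM, against at most 45.55 TPM in control, and 10 of 11 of its genes were called higher. The neutrophil marker sum was 8.71 and 104.29 TPM without repair and 105.63 and 105.68 TPM with graft, against 1.28 to 5.66 TPM in control, and 2 of its 6 tested genes were called higher. Of the T and natural killer cell markers 1 of 11 was called, and of the plasmacytoid dendritic cell and fibre markers 0 of 5 and 0 of 10. In the pathway lists, read beside the 6.43% of all tested genes called, 0 of 7 receptors and kinases, 0 of 12 sensors and adaptors, 2 of 8 signal transducers and other IRFs, 5 of 21 interferon gamma effectors and 1 of 7 inhibitors were called higher. Of the other type I interferon effectors 13 of 38 were, among them Bst2, which encodes a membrane tether of viruses (1.13 ± 0.27, adjusted p = 0.000696), and Ifitm3, which blocks viral entry (1.27 ± 0.31, adjusted p = 0.000731). These 2 examples were chosen after their values were seen. The part of the leukocytes in the contralateral levels was not tested.

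Within injured muscle without repair, 3 of the 9 genes were called lower at 14 than at 7 DPI and none between the other successive days. From 3 to 7 DPI none of the 9 was called, where 7.34% of all tested genes were, and limma gave an unadjusted p under 0.05 for 1, Irf1, at -0.47 ± 0.17 (adjusted p = 0.0235). From 7 to 14 DPI, Isg15 (-1.19 ± 0.50, adjusted p = 0.0307), Mx1 (-1.32 ± 0.57, adjusted p = 0.0331) and Ifit3 (-1.17 ± 0.46, adjusted p = 0.0203) were the 3, where 6.82% of all tested genes were called. Irf1, Irf7, Mx2 and Oas1a passed the adjusted p with smaller changes. The count was 0 without injured replicate 4 of 7 DPI, without injured replicate 2 of 14 DPI, with size factors or with all libraries kept, 5 with a pseudocount of 0.1, and 7 without injured replicate 4 of 14 DPI. It was 5 without injured replicate 2 or 5 of 7 DPI and 1 without replicate 6 or 7 of 7 DPI or replicate 3 of 14 DPI. Size factors shifted the median of all genes by 0.34 and moved the share of called genes that were higher from 10.6% to 60.9%, and the changes of the 9 genes then ran from -0.96 to -0.28. Markers of other cells differed between these days too. The macrophage sum was 739 to 3468 TPM at 7 DPI and 494 to 611 TPM at 14 DPI, with 8 of 11 markers called lower, and the T and natural killer sum was 75.14 to 179.84 and 54.63 to 69.87 TPM, with 2 of 11 called lower. Cd8a and Cd4 weigh most in the T and natural killer sum. Over all injured muscles they reached 189.33 and 174.28 TPM, and the next gene, Cd3g, 14.34 TPM. The fibre sum was 67834 to 145255 TPM at 7 DPI and 186236 to 226693 TPM at 14 DPI, with 6 of 10 markers called higher. Of the plasmacytoid dendritic cell and neutrophil markers, 2 of 5 and 3 of 6 were called lower. The part of these cells in the difference was not tested. The days were not spread evenly over the rats, whose numbers fell into 3 ranges that the labels do not explain. All muscles of 14 DPI came from rats numbered 125 to 144 and all of 28 DPI from rats numbered 73 to 108, so between those days the day and the range cannot be told apart within the groups compared. The 8 injured muscles of 7 DPI had 4 rats in the range 1 to 32 and 2 in either of the others, and the 3 of 3 DPI were all in the first. With the range added as a term of the model after the values had been seen, 1 gene was called from 7 to 14 DPI, Ifit3 (-1.23, adjusted p = 0.0340), and Isg15 had -0.99 (adjusted p = 0.112) and Mx1 -1.30 (adjusted p = 0.0679). From 14 to 28 DPI none was called, where 0.459% of all tested genes were, and limma gave an unadjusted p under 0.05 for 0 of the 9.

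The graft was asked about in 2 ways. Against their own contralateral muscles, grafted injured muscles had 7 genes called higher at 3 DPI and 9 at 7, 14 and 28 DPI, where 44%, 46.2%, 26.1% and 19.1% of all tested genes were called. Mx2 and Ifit3 missed at 3 DPI, with 0.94 ± 0.47 (adjusted p = 0.0612) and 1.00 ± 0.61 (adjusted p = 0.124). The median log2 fold changes were 1.39, 2.25, 1.81 and 1.72. The grafted muscles at 28 DPI averaged 24.08 TPM of Isg15 against 3.91 TPM contralaterally (2.19 ± 0.71, adjusted p = 0.00621) and 11.34 TPM of Mx1 against 0.86 TPM (2.43 ± 0.80, adjusted p = 0.00715). These calls rested on few contralateral muscles: without contralateral replicate 1 the count was 1 at 3 DPI and 5 at 14 DPI, without injured replicate 3 it was 4 at 3 DPI, and at 28 DPI it was 4 without contralateral replicate 2 and 5 without injured replicate 2. With size factors it was 2 at 3 DPI and 4 at 14 DPI, and the share of all called genes that were higher moved from 84.6%, 92.7%, 98% and 98.4% to 57.8%, 60.8%, 67.4% and 74.4%. The median log2 fold changes of the 9 genes were then 0.78, 1.41, 1.28 and 1.29. Other cells moved with these differences in the grafted arm too. The macrophage marker sum was 5562 to 8647 TPM in grafted injured and 167 to 217 TPM in contralateral muscle at 3 DPI, and 391.89 to 749.26 against 61.63 to 74.02 TPM at 28 DPI. All 11 macrophage markers were called higher at 3, 7, 14 and 28 DPI, and 10, 8, 1 and 0 of the 10 fibre markers lower. Of the T and natural killer cell markers 7, 10, 8 and 3 of 11 were called higher. The part of these cells in the grafted differences was not tested.

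Set directly against non-repaired injured muscle of the same day, grafted injured muscle had 0 of the 9 genes called at 3, 7, 14 or 28 DPI, where 0.00883%, 0.0883%, 0.0265% and 0% of all tested genes were called, and limma gave an unadjusted p under 0.05 for 0 genes on any of these days. The log2 differences ran from -0.22 to 0.31 on day 3, from 0.24 to 0.68 on day 7, from 0.22 to 0.72 on day 14 and from 0.36 to 1.08 on day 28. Their medians were 0.20, 0.37, 0.48 and 0.62, beside 0.14, 0.11, 0.12 and 0.07 over all genes. The lowest adjusted p was 0.560, 0.217, 0.730 and 0.999. For Isg15 the 95% confidence interval of the log2 difference was -0.97 to 1.28 at 3 DPI, -0.13 to 1.50 at 7 DPI, -0.44 to 1.87 at 14 DPI and -0.30 to 2.01 at 28 DPI. For Irf1, the least variable of the genes, it was -0.00073 to 0.71 at 28 DPI. That some days passed against contralateral muscle in one arm and not in the other does not show that the arms differed. The macrophage marker sum averaged 6971, 3159, 684 and 532 TPM in grafted injured muscle at 3, 7, 14 and 28 DPI. In non-repaired injured muscle it averaged 6083, 1930, 542 and 467 TPM, and the ranges overlapped on each day. The part of these cells in the differences between the arms was not tested.

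Running was compared with no running in injured muscle without repair. None of the 9 genes was called at 3, 7, 14 or 28 DPI, where 0.0441%, 0%, 0.0177% and 0.0177% of all tested genes were, and limma gave an unadjusted p under 0.05 for 0 genes on any of these days. The median log2 difference of running minus not running was -0.26, -0.15, 0.23 and -0.29. Isg15 differed by -0.34 (95% confidence interval -1.45 to 0.77) at 3 DPI and by 0.03 (-0.97 to 1.03) at 7 DPI, with 8 and 4 running muscles. At 3 DPI the running muscles held 16.68, 26.07 and 134.65 TPM of Isg15 (lowest, median and highest of 8), a range that contained 2 of the 3 muscles without running and not the lowest, at 15.21 TPM.

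In the grafted arm running was compared with no running after the values had been seen, and no gene passed the test. Isg15 measured 13.20, 17.845 and 37.22 TPM (lowest, median and highest of 6) in running and 12.69, 50.13 and 118.02 TPM (of 7) in other grafted rats at 3 DPI. At 7 DPI Rsad2 measured 1.19, 2.03 and 3.20 TPM (of 4) against 2.77, 6.395 and 17.24 TPM (of 8). The groups overlapped for each of the 9 genes on each of the 4 days. None of the 9 was called at 3, 7, 14 or 28 DPI, and neither was any other gene (0% of all tested genes on each day). Without adjustment, limma gave p under 0.05 for 7, 8, 0 and 0 of the 9 genes, which vary together from rat to rat, and the lowest adjusted p was 0.544, 1, 1 and 0.733. The median log2 difference of running minus not running was -0.94, -0.83, -0.16 and -0.41, beside -0.03, 0.0024, -0.04 and -0.11 over all genes. The differences of the 9 genes ran from -1.28 to -0.08 (Irf1) at 3 DPI and from -1.60 to -0.14 (Irf1) at 7 DPI. For Isg15 the difference was -1.20 (95% confidence interval -2.11 to -0.29) at 3 DPI and -1.03 (-2.04 to -0.03) at 7 DPI, and for Ifit3 -1.60 (-2.52 to -0.68) at 7 DPI. Whether running differed between the arms was not tested.

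**Figure D4:**
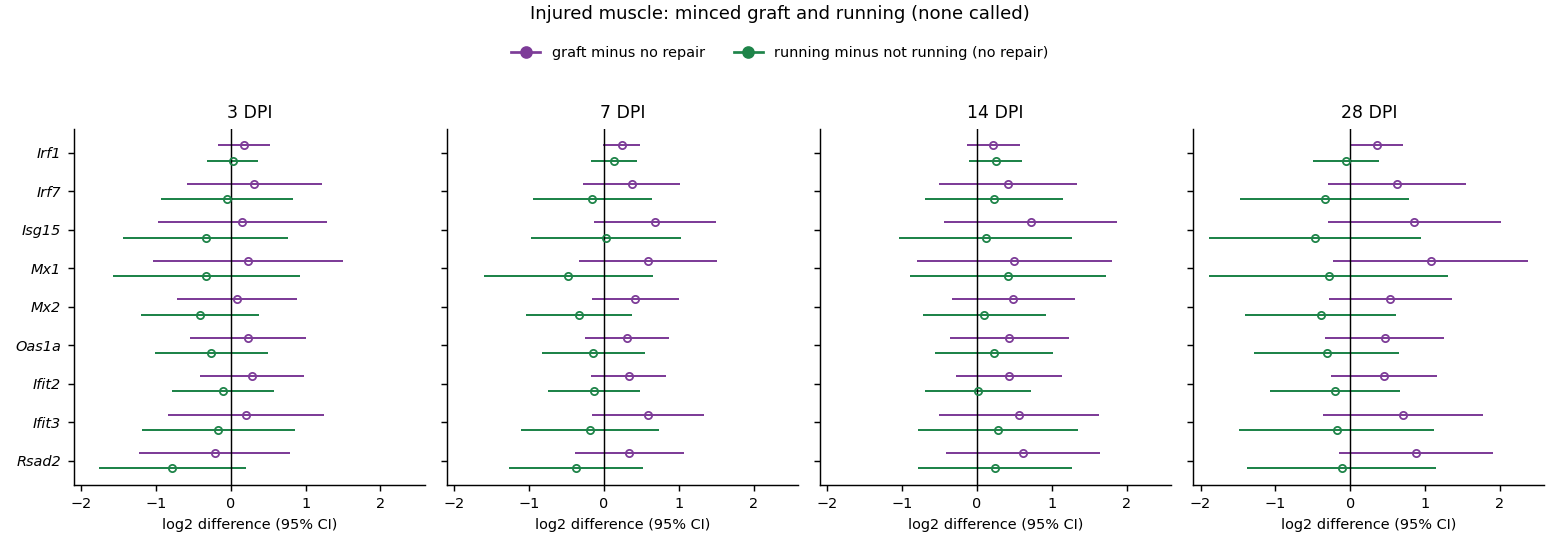
Log2 differences of the 9 genes for grafted against non-repaired injured muscle and for running against not running without repair, by day post injury. Open points are limma estimates, none of them called, and bars are 95% confidence intervals. The differences for grafting run from -0.22 to 1.08 and those for running from -0.78 to 0.41.

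The spread between rats of a group was wide for 8 of the 9 genes. Over the 76 injured muscles (60 degrees of freedom within groups), the standard deviation of log2(TPM + 1) was 0.94 for Isg15, 1.08 for Mx1, 0.87 for Ifit3, 0.83 for Rsad2, 0.73 for Irf7, 0.67 for Mx2, 0.65 for Oas1a and 0.56 for Ifit2. The median of all tested genes was 0.21, and Irf1 had 0.25. The share of tested genes with a smaller standard deviation was 63.8% for Irf1 and 96.8% to 99.5% for the others. For 2 muscles 2 libraries were kept, and these differed by 1.00- to 1.30-fold over the 9 genes, with Isg15 at 18.46 and 18.58 TPM in one and 37.61 and 36.83 TPM in the other.

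The genes varied together from rat to rat. Within groups, the deviations of Isg15 and of Irf7 had a Pearson r of 0.961 (Spearman rho 0.95) over 76 injured muscles. With Isg15, r was 0.953 for Mx1, 0.952 for Mx2, 0.947 for Oas1a, 0.916 for Ifit3, 0.884 for Ifit2 and 0.759 for Rsad2. Irf1 had the lowest, 0.626 (rho 0.628). A two-sided permutation test within groups gave p = 1e-05 for each, the smallest that 100000 permutations can give, and 1.62e-05 after Benjamini-Hochberg adjustment over 13 relations. Without the 2 muscles farthest from the median of Isg15, the 8 values of r ran from 0.609 to 0.954. The rat numbers fell into 3 ranges, which the labels do not explain, and within group and range r ran from 0.681 to 0.967. The points share their library, so a value high in 1 gene and high in another came from the same RNA.

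In 12 of the 14 injured groups of 3 or more muscles, at least 6 of the other 8 genes were highest in the muscle with the most Isg15, and Irf1 was among them in 7 groups, in 1 of which another muscle held the same 15.87 TPM. An example is injured replicate 4 at 7 DPI, which had the highest level of all 9 genes in its group, with 92.57 TPM of Isg15, 50.02 TPM of Mx1 and 18.13 TPM of Rsad2. In its group the others held 15.55 to 52.40 TPM of Isg15. This muscle also had the highest macrophage marker sum of its group, 3468 TPM, whose part in its levels was not tested. In 10 of the 14 groups at least 6 of the other 8 were lowest in the muscle lowest in Isg15.

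The deviations of Isg15 were also set against the summed markers of other cells. A sum weighs its highest genes most. Of the plasmacytoid dendritic cell genes, Irf8 reached 58.84 TPM in injured muscle and the next, Runx2, 12.46 TPM. Of the T and natural killer genes, Cd8a and Cd4 reached 189.33 and 174.28 TPM and the next, Cd3g, 14.34 TPM. The relations below were not computed for single marker genes. With the macrophage marker sum r was 0.194 (permutation p = 0.0919, adjusted p = 0.109), with plasmacytoid dendritic cell markers 0.376 (adjusted permutation p = 0.00344) and with T and natural killer cell markers 0.296 (adjusted permutation p = 0.0260). With the muscle fibre sum it was -0.106 and with the neutrophil sum -0.131. With all libraries kept the macrophage relation also passed (r = 0.311, adjusted permutation p = 0.0176). The T and natural killer relation was lost with size factors (r = 0.228, adjusted permutation p = 0.0835). For Irf1 the values were 0.605 with macrophage, 0.697 with plasmacytoid dendritic cell, 0.683 with T and natural killer cell markers and -0.398 with fibre markers. The difference between the values of Isg15 and Irf1 was not tested. In 34 rats with both legs measured, the deviations of the injured and the contralateral muscle had r between -0.177 and 0.338 over the 9 genes, and a two-sided permutation test gave an adjusted p of 0.94 for each.

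**Figure D5:**
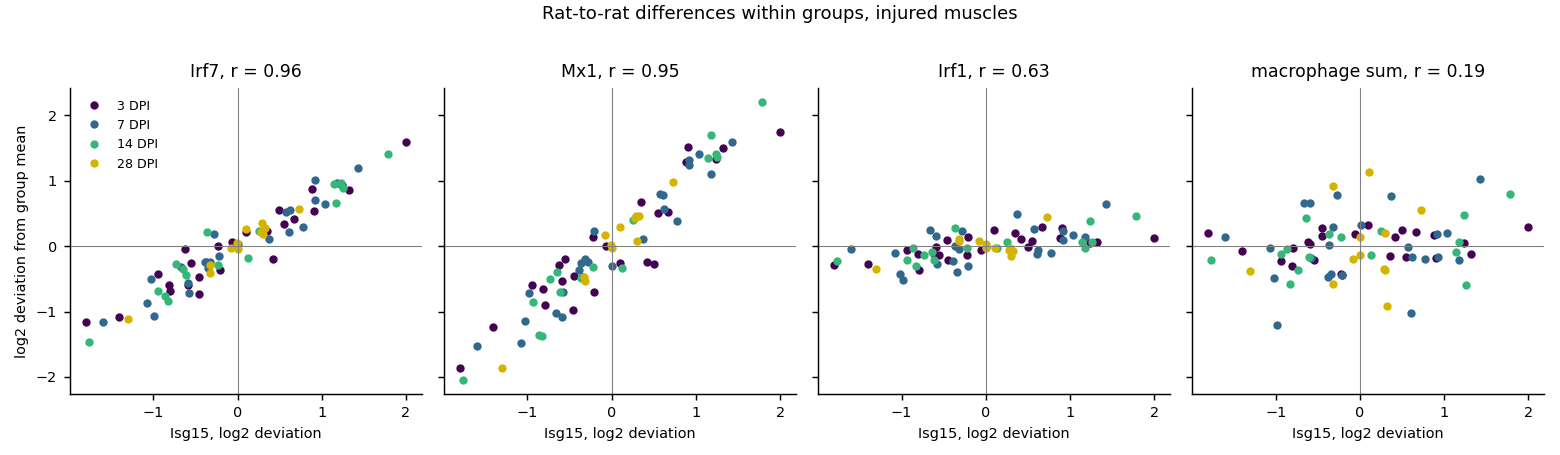
Deviation of each of 76 injured muscles from its group mean in log2(TPM + 1), with Isg15 on the horizontal axis and Irf7, Mx1, Irf1 or the macrophage marker sum on the vertical axis. Points are muscles, coloured by day post injury. Irf7 follows Isg15 closely (r = 0.961), Irf1 less so (r = 0.626), and the macrophage sum has r = 0.194.

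The rest of the pathway was counted from lists of its genes, to be read beside the 38.2%, 47.4%, 21.1% and 13.3% of all tested genes that were called in injured against contralateral muscle without repair at 3, 7, 14 and 28 DPI. Of 12 interferon ligands, 6 were in the table and 0 passed the filter. The highest level in any injured muscle was 1.87 TPM for Ifng and 0.48 TPM for Ifna2, and those of Ifna1, Ifna4, Ifnb1 and Ifnk were 0.17, 0.26, 0.09 and 0.12 TPM. Ifnb1 was listed at 0 in 112 of the 114 muscles and Ifng in 49. The ligands were therefore not tested beside the other genes. In the fit without the filter (16181 genes), looked at after the values had been seen, none of the 6 was called in injured against contralateral muscle without repair. Ifng, which encodes interferon gamma, averaged 0.267, 0.963, 0.435 and 0.288 TPM in injured muscle at 3, 7, 14 and 28 DPI and was listed at 0 in all contralateral muscles of this comparison. Its log2 differences of 0.33, 0.95, 0.50 and 0.35 had adjusted p of 0.239, 4.28e-08, 0.0495 and 0.224, so that it passed the adjusted p at 7 and 14 DPI. All 6 ligands averaged below 1 TPM in each of these groups. Such means cannot differ by a log2 fold change of 1 on the log2(TPM + 1) scale. None of the 6 could therefore be called, whatever its adjusted p.

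Receptors and kinases had 6, 7, 3 and 2 of 7 tested genes called higher in injured against contralateral muscle at 3, 7, 14 and 28 DPI. At 3 DPI Il10rb, a receptor chain of type III interferons and interleukin 10, was 3.09 higher on the log2 scale, Ifngr1 2.16 and Ifngr2 1.36, whereas Jak1, the shared kinase, had 0.13 (adjusted p = 0.420). Signal transducers and other IRFs had 4, 5, 2 and 2 of 8 called higher, which lies near the share of all genes. Their median log2 fold change was 1.16, 1.61, 0.82 and 0.62, beside 0.54, 0.91, 0.50 and 0.38 over all tested genes. The highest at 3 DPI were Irf8 (3.93) and Irf5 (3.82), which are expressed in myeloid cells, and the lowest was Irf4 (0.80). Nucleic acid sensors and adaptors had 7, 8, 6 and 3 of 12 called higher, led by the endosomal RNA receptors Tlr8 (3.70) and Tlr7 (3.65), with 0.36 for Tlr3 and -0.86 for the adaptor Mavs.

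Other type I interferon effectors had 31, 32, 23 and 13 of 38 called higher, with median log2 fold changes of 1.37, 1.91, 1.15 and 0.75. At 3 DPI Ifitm1, which blocks viral entry, had 5.40 and Cxcl10, a chemokine for T cells, 3.74, whereas Oas1f and Oas1k had -0.01 and -0.75. The interferon gamma effectors had 18, 18, 11 and 7 of 21 called higher, with medians of 1.83, 1.69, 1.05 and 0.68. The highest at 3 DPI were Cd74, the invariant chain of antigen presentation (3.14), and Ifi47 (3.03), and the lowest Gbp5 (0.75) and Cd274 (0.12). Inhibitors of the signal had 3, 4, 2 and 2 of 7 called higher and 2, 1, 1 and 0 called lower, with Ptpn6 (3.65) and Socs3 (3.49) highest and Ptpn11 (-1.11) and Cish (-2.07) lowest at 3 DPI. In the direct comparisons of graft with no repair and of running with no running in either arm, 0 genes of any of these lists were called.

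The 10 genes most like the set in pattern were then found. Likeness was the Pearson r between a gene's mean log2(TPM + 1) in each of 31 groups and the mean profile of the 9 genes. It was 0.9917 for Oasl2, 0.99 for RT1-S3, 0.9879 for Rtp4, 0.9861 for Oas1i, 0.9766 for Oas1b, 0.9764 for MGC108823, 0.9758 for Ddx58, 0.9745 for Adar, 0.9741 for Dhx58 and 0.9725 for RGD1309362. The 9 genes themselves had 0.938 (Rsad2) to 0.995 (Mx1), but each is part of that mean profile, which raises its r. Of these 10 genes, 7 stood on the lists above, and Oasl2 averaged 0.58 TPM in control and 9.42 TPM in injured muscle without repair at 3 DPI.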

How the data were processed

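Total RNA of rat TA muscle had been sequenced as paired-end libraries, and the authors deposited 1 table of TPM (transcript abundance scaled for transcript length and library total) per gene symbol, made with kallisto on the annotated rat genome build 6.0. The submitters' processing notes name kallisto and DESeq without versions. The table held 138 libraries and 16181 complete lines, and 1 incomplete line at its end was left out, with later symbols not analysed here. TPM keeps no depth of a single library, and the methods of the study give only a mean depth and the minimum a sample needed. Groups came from the labels. Libraries with fewer than 7000 symbols above 1 TPM (13) and 9 libraries whose labels did not settle a group were left out of the comparisons, and repeat libraries of 1 muscle were averaged, leaving 114 muscles in 31 groups.

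Genes with a group mean above 1 TPM (11328) entered 1 limma model (limma 3.58.1, R 4.3.3) with 83 residual degrees of freedom and a trend of the variance on intensity, with values taken as log2(TPM + 1). A fold change is on that scale, which understates the change of low genes. A gene was called at a Benjamini-Hochberg adjusted p under 0.05 and a log2 fold change beyond 1, two-sided. Python 3.11.15, numpy 2.4.6, pandas 2.3.3 and scipy 1.17.1 served for the correlations, with permutations within groups, and matplotlib 3.10.9 for plots. The fit and the correlations were tested on simulated data. Each rat is a separate animal, and the labels tie the legs of a rat together. The deviations of 34 pairs of legs correlated at a mean of 0.0944 (-0.0679 to 0.358), and with the rat as a block the within-rat correlation was 0.0260.

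The 9 genes, the lists and the tests were chosen with earlier results of these data known. All 9 genes were named whatever their result. From each tested pathway list the 2 highest and 2 lowest by log2 fold change at 3 DPI against contralateral muscle were named, except that 1 gene of the signal transducer list is not reported here. The 6 ligands, Bst2 and Ifitm3 were named beyond that rule. Lists of cell type markers are given by counts and sums, and those of their genes that are named were chosen after their values were seen. The 10 genes of most similar pattern were also named. Alternatives were a pseudocount of 0.1, no filter, size factors, the rat as replicate block, all libraries kept, each library as its own sample, only rats not running, only the groups compared, control muscles averaged per rat and each muscle of the groups compared left out, except the 2 running grafted muscles of 28 DPI. The comparison of contralateral muscle of both arms between 3 and 7 DPI, contralateral muscles of both arms against control, running in the grafted arm, the ligands without the filter, the range of rat numbers as a term of the model (in comparisons without control) and the alternatives of the correlations were added after seeing the data.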

Additional observations from a re-analysis of the deposited data

Results flagged for a closer look

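In 16 groups of 4 to 10 muscles, 1 muscle stood far from the others in 27 of 144 combinations of gene and group. The rule set the gap to the nearest muscle against the range of the group, in TPM. Its chance rate of about 1 in 20 groups holds for normally distributed values, which these TPM were not shown to be. The 27 therefore cannot be set against that rate, and the genes are not independent of each other. These 27 came from 10 muscles. Most were in 3 of them. The injured muscle of running non-repaired replicate 4 at 3 DPI was highest in Irf7 (115.39 TPM), Isg15 (134.65), Mx1 (66.67), Mx2 (40.61), Oas1a (19.27) and Ifit3 (35.86). Injured running grafted replicate 2 at 14 DPI was highest in Irf7 (57.59 TPM), Isg15 (81.14), Mx1 (38.39), Mx2 (35.56), Ifit2 (31.88), Ifit3 (22.11) and Rsad2 (9.25). Injured non-repaired replicate 4 at 14 DPI was highest in Mx1 (21.01 TPM), Mx2 (23.87), Oas1a (5.58) and Ifit2 (19.02). Irf1, the first transcription factor of the set, was set apart in none of the 10 muscles.

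The others held 1 or 2 genes each. Injured running grafted replicate 1 at 3 DPI was highest in Irf7 (42.44 TPM) and Mx1 (28.835 TPM), injured running grafted replicate 3 at 7 DPI in Isg15 (60.73 TPM) and Oas1a (7.37 TPM), and injured running non-repaired replicate 1 at 14 DPI in Ifit3 (27.7 TPM) and Rsad2 (10.98 TPM). Injured non-repaired replicate 4 at 7 DPI was highest in Oas1a (11.56 TPM). Of the contralateral muscles at 7 DPI, grafted replicate 5 was highest in Oas1a (2.12 TPM) and non-repaired replicate 4 in Irf7 (7.21 TPM). Control replicate 4 was lowest in Mx1, at 0.22 TPM with the next at 0.97 TPM.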

How the results depend on the processing

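Of 102 calls of an interferon-response gene, a pseudocount of 0.1 lost 1, no filter on low genes 6, size factors 46, all libraries kept 21, only rats not running 1, only the groups compared 11, and the rat as replicate block and each library as its own sample 0. Control muscles averaged per rat lost 7 of 37, the range of rat numbers as a term 3 of 65, and contralateral muscles of both arms (0 of 28) and leaving out rat 011 (0 of 35) none. The rat as replicate block kept all 102 (102 of 102). No direction was reversed. Size factors gave 2, 3 and 0 genes called for injured against contralateral muscle at 3, 14 and 28 DPI, 2 and 4 for grafted against contralateral at 3 and 14 DPI, 1 for injured against control at 28 DPI, 0 for contralateral against control at 3 DPI, 0 for 7 to 14 DPI and 1 for contralateral muscle at 3 against 7 DPI. All libraries kept gave 0 for contralateral against control at 3 DPI, 0 for injured against contralateral at 28 DPI, 0 for 7 to 14 DPI and 8 for contralateral muscle at 3 against 7 DPI. For contralateral against control at 3 DPI no filter gave 3, only the groups compared 0 and control muscles averaged per rat 1. For injured against contralateral at 28 DPI no filter gave 1, only rats not running 1 and only the groups compared 5. For 7 to 14 DPI a pseudocount of 0.1 gave 5 and the range of rat numbers as a term 1. The cause was not tested.

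Without single muscles (a lone muscle left in an arm is assumed to vary like the other groups), the counts ran from 1 to 9, 3 to 7 and 0 to 2 for injured against contralateral at 3, 14 and 28 DPI, 0 to 7 for contralateral against control at 3 DPI, 1 to 8, 5 to 9 and 4 to 9 for grafted against contralateral at 3, 14 and 28 DPI, 5 to 7 for injured against control at 14 and 28 DPI, 0 to 7 for 7 to 14 DPI and 4 to 7 for contralateral muscle at 3 against 7 DPI. Over 100 such refits 113 of 902 calls were lost. Not left out in turn were the 2 running grafted muscles of 28 DPI and the 12 contralateral muscles of running rats, which enter no comparison. The 2 contralateral muscles per arm on most days and the 4 control muscles from 2 rats limit every comparison that uses them, and TPM leaves no counting error to give.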

Other observations

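The 9 libraries that the labels did not put in a group also held the interferon-response genes. In 8 libraries of running rats at 28 DPI the title and the other labels named opposite muscles, and Isg15 measured 2.56, 3.10, 3.28 and 3.67 TPM in the 4 that the labels call uninjured and 6.00, 5.97, 8.25 and 10.75 TPM in the 4 that they call injured. The ninth library, from a contralateral muscle whose label gave another day than the library of the other leg, measured 7.32 TPM of Isg15 and 9.54 TPM of Irf7.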
